A study of Mus musculus with 14 samples.

Results

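Plasma miRNAs differed from animal to animal among the 8 mice with osteosarcoma (OS) of the screen, and this account describes that variation without any comparison with the other mice. The 8 mice were taken by their disease label from the 14 mice analysed here, and 1 plasma sample was measured in each. They come from a genetically engineered mouse model (GEMM) in which Cre recombinase is driven by a Col1a1 promoter active in osteoblasts, and one or both Trp53 alleles are floxed, so that one or both copies of p53 are deleted in the bone-forming lineage and not in the rest of the animal. Blood was taken into EDTA by cardiac puncture once a tumor had developed. The labels do not say which of these mice carried one and which carried both floxed alleles, how old each was at sampling or whether a tumor had spread, so none of these can be set beside a value. Mice are named here by the number in their title, as OS replicates 10, 11, 12, 15, 16, 17, 18 and 19. The methods give 14 GEMM OS mice, and how these 8 relate to them is not stated.

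Plasma holds miRNAs from blood cells and from tissues, packed in vesicles or bound to proteins, and red blood cells that break during sampling add their own. miR-451 and miR-144 are made from a single transcript in developing red blood cells, and miR-451 is so abundant there that its level in plasma is used to watch for haemolysis. miR-23a changes little when red blood cells lyse, so the difference between its quantification cycle (Cq) and that of miR-451, the first minus the second, serves as a marker, which is higher where more red blood cell miRNA is present. A Cq is the PCR cycle at which a well crosses a set signal, so that each cycle less means about a doubling of the miRNA.

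The mature sequences below are those that the results turn on, from RefSeq (GRCm38.p6), written 5′ to 3′ with the seed, bases 2 to 8, in capitals. The first set holds the 2 miRNAs of the marker, each with a miRNA of its own transcript. miR-451 lies at chr11:78073186-78073207 and miR-144 beside it at chr11:78073047-78073066, both on the plus strand, and miR-23a lies at chr8:84208563-84208583, with one of the 2 loci of miR-24 at chr8:84208875-84208896.
miR-451: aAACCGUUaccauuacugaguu
miR-144: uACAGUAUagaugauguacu
miR-23a: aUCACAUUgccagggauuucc
miR-24: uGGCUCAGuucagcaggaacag
The next set holds the miRNAs with a matched sequence among the 10 negative slopes on the marker named by rule. Of these miR-149 passed the test. Their share of G and C runs from 42.9% in miR-195 and 45.8% in miR-181b to 65.2% in miR-423-3p. The locus of miR-149 lies within the span of Gpc1 at chr1:92850381-92850403, and that of miR-214 within Dnm3 at chr1:162223438-162223459, both on the plus strand.
miR-149: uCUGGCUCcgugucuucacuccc
miR-214: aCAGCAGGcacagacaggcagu
miR-423-3p: aGCUCGGUcugaggccccucagu
miR-193*: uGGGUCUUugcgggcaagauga
miR-195: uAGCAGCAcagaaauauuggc
miR-181b: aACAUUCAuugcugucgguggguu
miR-342-3p: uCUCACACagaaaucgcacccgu
miR-425*: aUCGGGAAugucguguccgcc
The third set had positive slopes on the marker, none of which passed. miR-32 and miR-25 share a seed, and the miR-29 family shares another.
miR-32: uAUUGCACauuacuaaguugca
miR-25: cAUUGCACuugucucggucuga
miR-29a: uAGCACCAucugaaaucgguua
miR-29b: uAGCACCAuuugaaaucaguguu
miR-29c: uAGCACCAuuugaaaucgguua
miR-376a: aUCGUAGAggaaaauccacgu
The fourth set shows products of shared transcripts. Both arms of miR-106b and miR-93 come from the miR-106b-25 cluster within Mcm7 on the minus strand of chromosome 5, where the starred name is the other arm of the hairpin. The miR-200 family falls into pairs by seed, miR-200a with miR-141 and miR-200b with miR-429, although the transcripts join miR-200a to miR-200b and miR-429. miR-192 and one of the 2 loci of miR-194, both abundant in liver and gut, share a transcript on chromosome 19.
miR-106b: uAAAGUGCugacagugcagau
miR-106b*: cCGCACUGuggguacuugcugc
miR-93: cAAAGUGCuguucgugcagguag
miR-200a: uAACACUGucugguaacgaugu
miR-141: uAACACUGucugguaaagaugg
miR-200b: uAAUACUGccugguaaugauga
miR-429: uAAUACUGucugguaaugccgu
miR-192: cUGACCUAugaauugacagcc
miR-194: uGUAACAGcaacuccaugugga

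The haemolysis marker spread widely within the group. It was 1.05 cycles in OS replicate 10, 2.59 in 12, 2.97 in 11, 4.26 in 17, 4.42 in 19, 5.03 in 16, 6.36 in 15 and 6.85 in 18, a mean of 4.19 ± 1.94 (SD, n = 8). None reached 7 cycles. The mice titled 10 to 12 had the 3 lowest markers and did not overlap with those titled 15 to 19. The numbers between these runs belong to control mice, and no label names a batch. The labels do not say what the numbers stand for, so an order of sampling or processing and the marker cannot be told apart for these mice. The gap from 10 to 12 within the first run of numbers was larger than the gap between the runs, from 2.97 to 4.26.

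The marker is set by both of its miRNAs, which chose the order of the mice and are therefore described without a test. Levels are given here as the global mean Cq of a mouse minus the Cq of the miRNA, a log2 value that is higher where there is more of it. miR-451 was 8.23 in OS replicate 10, 10.10 in 12, 10.90 in 11, 11.98 in 17, 11.17 in 19, 11.91 in 16, 12.44 in 15 and 12.81 in 18, a range of 23.9-fold. miR-23a was 7.18, 7.51, 7.93, 7.72, 6.75, 6.88, 6.08 and 5.96 in the same order of mice, a range of 3.92-fold. Thus miR-451 supplied most of the spread, while miR-23a was lowest in the mice with the highest markers. miR-144, the partner of miR-451, was 5.21, 5.23, 6.48, 8.62, 7.23, 7.33, 8.66 and 7.93, again in that order, and miR-24, which shares a transcript with miR-23a, was 7.27, 7.78, 7.61, 7.27, 6.82, 6.82, 5.96 and 6.32. Across the 8 mice miR-451 and miR-144 had r = 0.884 and miR-23a and miR-24 had r = 0.927, as a description, since each pair shares its plasma samples and its scaling.

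Detection did not follow the marker. Of 389 named miRNAs, 333 to 373 were under the background limit of Cq 37 in each mouse, with 333 in OS replicate 19 and at least 361 in every other. The mean Cq over the retained miRNAs lay between 31.65 and 32.86. The number detected had r = 0.0215 with the marker (exact permutation test over 40320 pairings, two-sided, p = 0.959; Spearman rho = 0.122, p = 0.795; Benjamini-Hochberg adjusted p = 0.959 and 0.795 over 4 relations). Without OS replicates 10 and 18, the mice farthest from the median marker, r was -0.0700. The mean Cq had r = 0.333 (exact permutation p = 0.417, rho = 0.333 with p = 0.428, adjusted p = 0.556 and 0.571), and r = -0.0680 without the same mice. For 3 miRNAs with a well on each panel, the difference between wells had an SD among mice of 0.123 (miR-103), 0.228 (miR-191) and 0.236 cycles (miR-423-3p). Their levels had SDs of 0.51, 0.75 and 0.91 among the mice, and the wells of each correlated at r of 0.977 to 0.992. For these 3 miRNAs the spread between mice was thus larger than that between wells. Their mean Cq was 27.7 (miR-103) to 28.6 (miR-423-3p), so wells of later cycles are not covered. Among 23 miRNAs measured by both a mouse and a rat assay, the median r between assays was 0.863, from -0.14 for miR-28* to 0.995 for miR-143.

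Individual miRNAs differed in how far they varied. Among the 288 measured in all 8 mice the median SD was 0.85 on the log2 scale, and 94 had an SD above 1. The widest spread was that of miR-720, a name given to a sequence that matches a transfer RNA, with an SD of 3.10. Its level was 10.74 in OS replicate 10, 6.60 in 12, 6.29 in 11, -0.28 in 17, 5.01 in 19, 3.57 in 16, 6.40 in 15 and 5.53 in 18. It was thus highest in the mouse with the lowest marker and lowest in OS replicate 17, over 11.02 log2 units. The rat assays of miR-215 (SD 2.76) and miR-347 (2.64), the Sfmbt2 cluster member miR-669b (2.40) and miR-149 (2.14) followed. The steadiest were rno-miR-345-5p (0.21), miR-223 under its rat and mouse assays (0.23 and 0.25), miR-17 (0.23) and miR-30a (0.25). miR-223 is made in large amounts by myeloid cells and is abundant in platelets, and its mouse assay lay between 6.22 and 7.04 in every mouse. The order of such close values does not exceed the spread between assays, since both assays of miR-223 had r of only 0.193.

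The largest axis of variation in the profiles ran with the haemolysis marker. The first principal component over 286 miRNAs, with miR-23a and miR-451 left out, held 39.4% of the variance, and the next components held 20.8%, 13.3% and 9.24%. miR-144 and miR-24, which share transcripts with the marker miRNAs, stayed among the 286, so the component is not wholly free of the marker. Scores on the first were 15.53 in OS replicate 10, 12.95 in 12, 6.65 in 11, -10.92 in 17, -1.26 in 19, -2.01 in 16, -12.74 in 15 and -8.21 in 18. The score was above 0 in the mice titled 10 to 12 and below 0 in all others. Its correlation with the marker was r = -0.888 (exact permutation test, two-sided, p = 0.00402, adjusted p = 0.0161 over 4 relations), and r = -0.860 without OS replicates 10 and 18. By rank it had rho = -0.810 (exact permutation p = 0.0218, adjusted p = 0.0436). The fourth relation is that with GC content described below, chosen after the slopes were seen. It stays a description, but its permutation p for rho, also 0.0218, entered the adjustment and lowered the adjusted p. The adjusted p of 0.0436 is therefore not read as a pass. Within the runs of title numbers, which are too small for a test here, r of the score with the marker was -0.840 over the 3 mice titled 10 to 12. It was -0.425 over the 5 titled 15 to 19. The score changed by -4.91 per cycle of the marker over all mice and by -2.41 with the run as a term. High on this component were miR-720 (weight 0.194), miR-149 (0.179), miR-715 (0.177), rno-miR-347 (0.157) and miR-214 (0.125). At its low end were rno-miR-215 (-0.187), miR-802 (-0.157), a miRNA of liver and pancreas, miR-32 (-0.130), the epithelial miR-141 (-0.126) and miR-144 (-0.126). Across miRNAs, the weight had r = 0.585 with GC content, as a description of these mice.

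**Figure D1:**
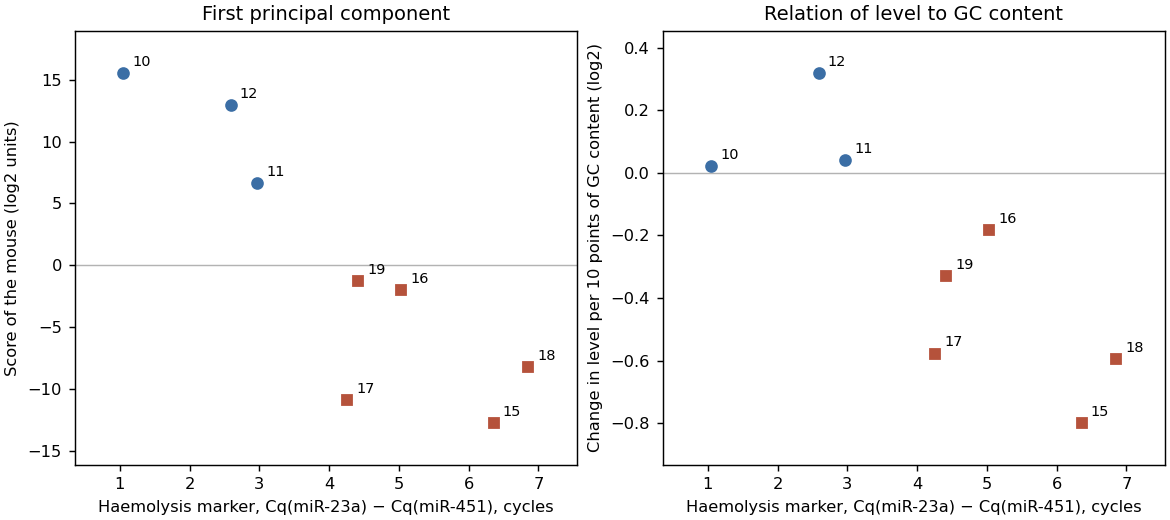
Score on the first principal component (left, log2 units) and change in level per 10 points of GC content (right, log2) against the haemolysis marker in cycles, for the 8 mice with OS. Points are mice labelled by replicate number, with circles for titles 10 to 12 and squares for 15 to 19. Both measures are lower where the marker is higher, with r = -0.888 and r = -0.811.

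Single miRNAs were then related to the marker by a limma slope across the 8 mice. Of 351 miRNAs tested, 2 passed an adjusted p of 0.05, which is 0.57%. Both fell as the marker rose, and none passed in the other direction. This balance depended on the scaling, since 36 passed with a positive slope and 2 with a negative one when levels were scaled to the 3 reference miRNAs. At an unadjusted p under 0.05 there were 90 (25.6%), 43 with a positive slope (12.3%) and 47 with a negative one (13.4%). Between these, 50 had an adjusted p under 0.1, 26 positive and 24 negative.

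miR-149, an intronic miRNA of the Gpc1 locus, was 4.54 in OS replicate 10, 4.98 in 12, 4.52 in 11, 1.33 in 17, 3.29 in 19, 3.13 in 16, -0.03 in 15 and -0.52 in 18. It was above 4.5 in the mice titled 10 to 12 and near 0 in the 2 mice with the highest markers, a range of 45.3-fold. Its slope was -0.97 log2 units per cycle of the marker (standard error 0.18, limma adjusted p = 0.0473). miR-715, a name with no sequence shown here, was 1.11, 0.22, -1.17, -3.94, -1.62, -3.81, -3.38 and -4.24 in the same order of mice. It too was highest in the mice titled 10 to 12, and its slope was -0.94 (standard error 0.17, limma adjusted p = 0.0473). Its mean Cq was 34.22, against the background limit of 37. In OS replicates 15 to 18 its Cq was above 35, so it was not tested with a Cq limit of 35. Neither miR-149 nor miR-715 passed with the run of title numbers as a term, where the slopes were -0.86 and -0.57 (limma adjusted p = 0.873 for both). The runs split the markers without overlap, so that fit can hardly separate the marker from the run. The count of called miRNAs was 0 without any 1 of OS replicates 11, 12, 15, 18 and 19, 3 without OS replicate 16, 5 without 10 and 6 without 17. Over all mice left out in turn, the slope of miR-149 stayed between -1.25 and -0.87 and that of miR-715 between -1.03 and -0.87.

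The other miRNAs named here did not pass, and those with the smallest p all had a limma adjusted p of 0.0951. Some of them passed when 1 mouse was left out. Among negative slopes, miR-214, which is made in mesenchyme and acts on osteoblasts, had -0.82 ± 0.18 (standard error), and its rat assay had -0.72 ± 0.19. miR-214 passed without OS replicate 10 (slope -1.07, limma adjusted p = 0.0386), 16 (-0.87, 0.0429) or 17 (-0.82, 0.0438). miR-214 was between 3.08 and 4.12 in 5 mice, 1.73 in OS replicate 19, -0.72 in 15 and 0.03 in 18. Its rat assay was also lowest in OS replicates 15 (3.18) and 18 (4.62) and between 6.06 and 8.12 in the others, and the assays correlated at r = 0.989. miR-423-3p, one of the reference miRNAs of the study, had -0.43 ± 0.11. Its level was 4.61, 4.43, 4.44, 2.87, 3.48, 3.04, 2.20 and 2.75 in the order of the marker, and so was 4.43 or more in the mice titled 10 to 12 and 3.48 or less in the rest. miR-195 (-0.56), measured in 7 mice, miR-181b (-0.54), miR-342-3p (-0.42), which is made in lymphocytes, miR-193* (-0.41) and miR-425* (-0.40) followed.

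Among positive slopes, miR-32 had 0.63 ± 0.15 (standard error). It was -0.62, -0.20, 0.76, 2.87, 1.00, 1.13, 3.19 and 2.67 in the order of the marker, a range of 14.1-fold. miR-144 had 0.59 ± 0.15, with a range of 11.0-fold. miR-376a, of the imprinted Dlk1-Dio3 cluster, had 0.55 ± 0.14, miR-29b, which targets collagen transcripts, 0.54 ± 0.14, and miR-16-1*, the minor arm of a red blood cell miRNA, 0.52 ± 0.14. miR-29b was 0.96, 1.26, 1.78, 4.11, 2.07, 2.66, 4.23 and 3.52. For miR-32, miR-144 and miR-29b, OS replicates 17, 15 and 18 were the highest and 10 and 12 the lowest. Without OS replicate 17 all of these 3 passed, with slopes of 0.63, 0.58 and 0.54 (limma adjusted p = 0.0269, 0.0357 and 0.0370). miR-145* (0.60), measured in 7 mice, miR-33 (0.45), miR-34c (0.41), miR-582-5p (0.39) and miR-22* (0.38) followed. A slope of miR-144 or miR-24 is not independent of the marker, since each shares a transcript with one of its miRNAs.

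**Figure D2:**
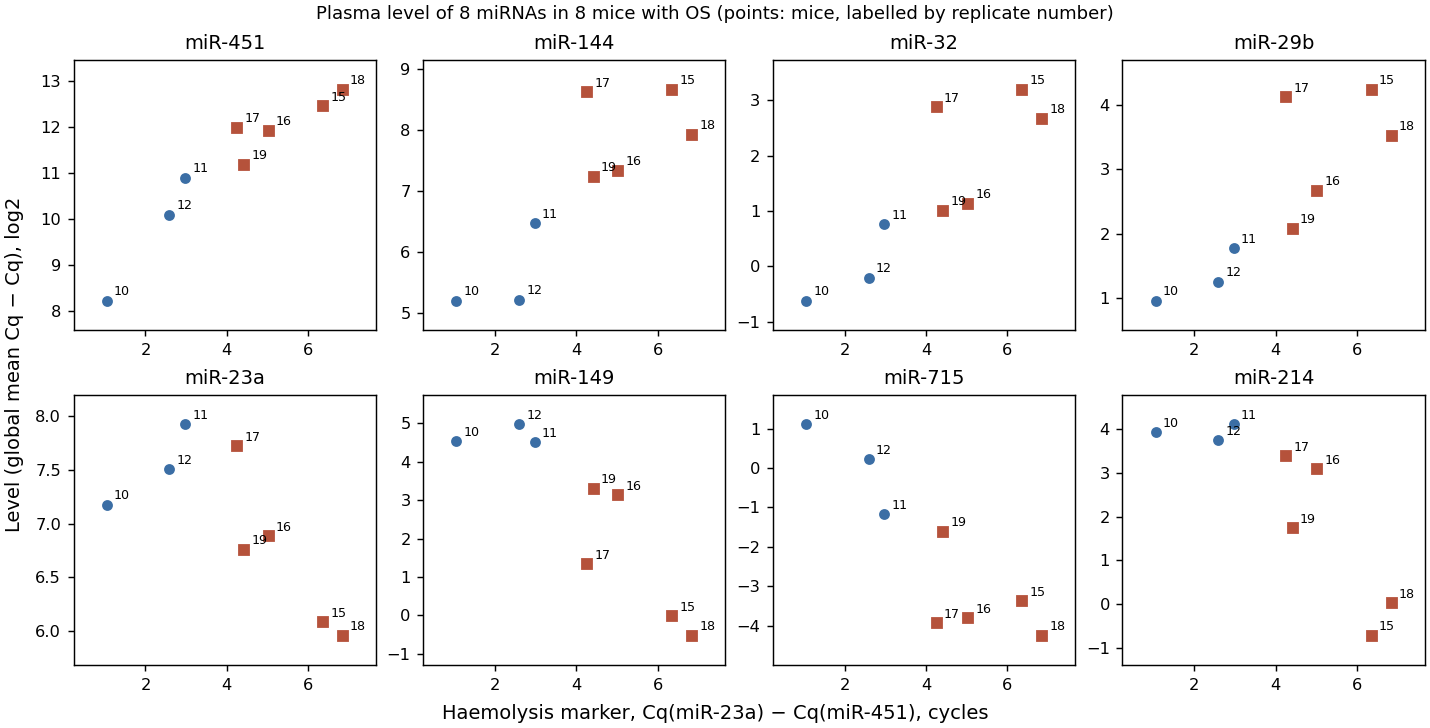
Level (global mean Cq minus Cq, log2) of miR-451, miR-144, miR-32 and miR-29b in the upper row and miR-23a, miR-149, miR-715 and miR-214 in the lower row against the haemolysis marker in cycles. Each point is 1 of the 8 mice with OS, with circles for titles 10 to 12 and squares for 15 to 19. miR-451 and miR-23a set the marker and are shown as a description, and miR-149 and miR-715 are those that passed.

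GC content was the sequence feature that ran most closely with the slopes among those computed. It was known for 249 of 309 mouse-named miRNAs tested (80.6%), and for 70.9% of all 351, so the relation holds for mouse-named miRNAs only. Across these 249, the slope had r = -0.511 and rho = -0.535 with GC content, where miRNAs are not independent replicates. With the share of C it had r = -0.397, of U 0.314, of A 0.258 and of G -0.0648, and with length r = -0.0869. With the mean level and the SD among mice it had r = -0.0436 and -0.0199. The 20 miRNAs with a GC content of up to 35% had a median slope of 0.31, and 15 of them had a positive slope. The median was 0.19 for the 26 with up to 40%, 0.15 for the 43 with up to 45%, 0.01 for the 73 with up to 50%, -0.19 for the 28 with up to 55%, -0.09 for the 25 with up to 60% and -0.27 for the 34 above 60%. In that last class 5 had a positive slope. The relation was closer on panel I (r = -0.601, n = 172 miRNAs) than on panel II (-0.231, n = 74), and that difference was not tested. miR-144 and miR-32 (31.8%) stood at the A and U rich end, and miR-149 (60.9%) and miR-423-3p (65.2%) at the other. Exceptions were miR-335-5p, with a GC content of 30.4% and a slope of -0.53, and miR-205, with 54.5% and 0.15, neither of which passed (limma adjusted p = 0.0951 and 0.361).

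**Figure D3:**
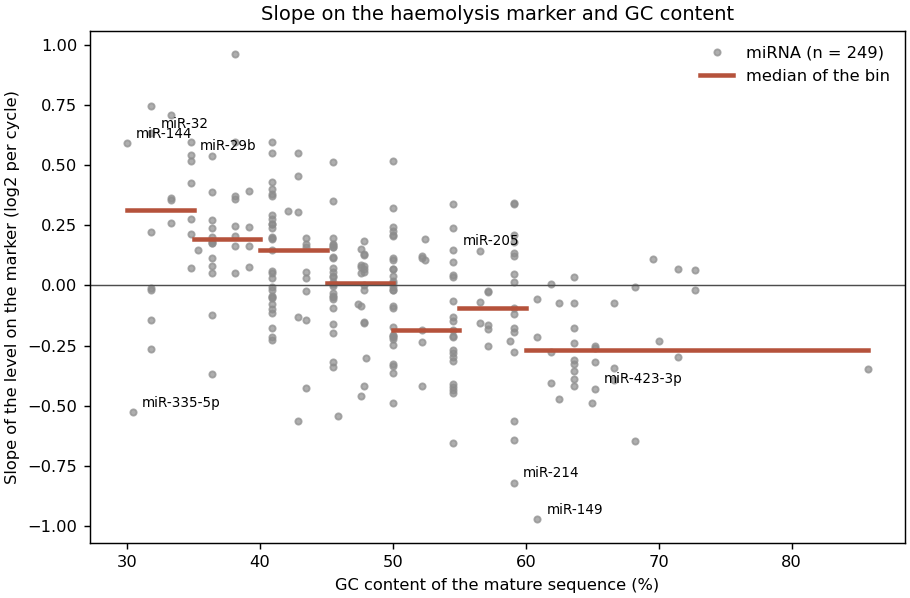
Slope of the level on the haemolysis marker (log2 units per cycle) against GC content of the mature sequence in percent, for 249 mouse-named miRNAs in 8 mice with OS. Grey points are miRNAs and red bars the median slope of each class of GC content, which runs from 0.31 at up to 35% to -0.27 above 60%.

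The same relation was read within each mouse, as the change in level per 10 points of GC content over miRNAs measured in all mice. It was 0.02 in OS replicate 10, 0.32 in 12, 0.04 in 11, -0.58 in 17, -0.33 in 19, -0.18 in 16, -0.80 in 15 and -0.60 in 18. Mice titled 10 to 12 lay at or above 0 and the others below it. Against the marker it had r = -0.811 and rho = -0.810, and r = -0.870 without OS replicates 10 and 18. Within the mice titled 15 to 19 r was -0.552, and within those titled 10 to 12 it was 0.381. The change per cycle of the marker was -0.16 over all mice and -0.07 with the run as a term. This measure was chosen after the slopes had been seen and restates their relation with GC content mouse by mouse, so it is a description with no test. With the trend on GC content removed from each mouse, 49 of the 249 miRNAs had an unadjusted p under 0.05, against 70 of the same miRNAs before. miR-149 passed in this fit (slope -0.79, limma adjusted p = 0.0469), together with miR-365, named here after its value was seen (slope -0.52, with the same adjusted p). The slopes of miR-32 and miR-144 were 0.38 and 0.31 there (limma adjusted p = 0.117 and 0.173).

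Lists of miRNAs by source of cells were set beside all 351 miRNAs tested, whose median slope was -0.0037 and of which 175 had a positive slope. None of the red blood cell, platelet, white blood cell, muscle, liver, epithelial, nerve, connective tissue or Dlk1-Dio3 lists held a called miRNA in either direction, where 0.57% of all miRNAs were called. In the red blood cell list 12 of 14 tested members had a positive slope and the median was 0.22, and 4 had an unadjusted p under 0.05, all positive, where 12.3% of all miRNAs did. These were miR-144, miR-16-1*, miR-15a (0.40) and miR-106b (0.31). With the 3 reference miRNAs as the scaling the median slope of all miRNAs was 0.19, and that of the red blood cell list 0.42. miR-451 is a member and sets the marker, so it was left out of the mean over the list. The mean level of the other 14 members was 2.79 in OS replicate 10, 2.77 in 12, 3.66 in 11, 4.41 in 17, 3.63 in 19, 3.7 in 16, 4.14 in 15 and 3.93 in 18, and so was lowest in 2 of the mice titled 10 to 12. Members did not move as one. miR-486, which is abundant in red blood cells, was 7.42, 7.60, 8.45, 8.18, 7.97, 8.64, 7.25 and 7.57, with no order along the marker, and its slope was -0.01 (limma adjusted p = 0.960). miR-16 was above 9 in OS replicates 17 and 15 alone, and had a slope of 0.20 (limma adjusted p = 0.344).

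Platelet miRNAs had a median slope of -0.06 over 14 members, of which 4 had a positive slope. Their mean level was between 3.36 and 3.40 in the mice titled 10 to 12 and between 2.85 and 3.23 in the others. miR-28* (-0.36), miR-24 (-0.27) and miR-320 (-0.27) had an unadjusted p under 0.05 and did not pass (limma adjusted p = 0.0951 to 0.162). These are 3 of 14 members, where 13.4% of all miRNAs had a negative slope at that p, and miR-24 shares a transcript with miR-23a of the marker. The rat assay of miR-28*, also in the list, had a slope of -0.0037 (limma adjusted p = 0.981). The list's mean had r = -0.69 with that of the 14 red blood cell miRNAs across the 8 mice, as a description of values that share a scaling. White blood cell miRNAs were split, with a median slope of 0.05 over 13 members. miR-155, which is induced in activated immune cells, had 0.59 and the myeloid and lymphoid miR-142-3p 0.52, while miR-181b had -0.54 and miR-342-3p -0.42, all with a limma adjusted p of 0.0951. The mean Cq was 34.6 for miR-155 and 34.3 for miR-181b, against 27.8 for miR-342-3p.

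Some tissue lists varied together, though none held a miRNA called on the marker. The mean pairwise r within a list, over members measured in all 8 mice, was 0.70 for the 6 muscle members, 0.505 for red blood cells, 0.423 for epithelium (0.270 without OS replicate 12), 0.196 for liver and 0.0405 for platelets, against 0.00917 for all pairs of miRNAs. The muscle list includes mouse and rat assays of miR-1, which share a target. Its mean level was -0.04 in OS replicate 10, 1.42 in 12, 2.88 in 11, 1.40 in 17, 3.67 in 19, 1.89 in 16, 1.94 in 15 and 0.91 in 18, highest in 19 and lowest in 10. miR-1, of skeletal and heart muscle, was 3.21 in OS replicate 10 and 7.56 in 19, and miR-133a, made from the same transcripts, was 4.59 and 8.09, with its lowest value, 4.32, in 18. Their slopes were 0.30 and -0.11 (limma adjusted p = 0.370 and 0.778). The heart and slow muscle miRNA miR-499, measured in 6 mice and not in OS replicates 10 and 18, had the highest slope of the list, 0.71 (limma adjusted p = 0.0951). The median slope of the list was 0.21, and -0.13 without OS replicate 10.

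The mean level of 9 epithelial members was highest in OS replicate 16, at 1.88 against -1.17 to 0.72 in the other mice. Not every member followed, as miR-205 was 1.71 in OS replicate 16 and highest in 19, at 2.36. Of 12 tested epithelial members 11 had a positive slope, where 175 of all 351 miRNAs did. The list's median was 0.17, and -0.18 with the run of title numbers as a term. The 12 include mouse and rat assays of miR-200b (r = 0.891) and of miR-200c (r = 0.950), so they are not all separate. In this list 2 had a positive slope at an unadjusted p under 0.05, where 12.3% of all miRNAs did. miR-200a was -1.09, -0.74, 0.46, 2.20, 0.66, 3.34, 1.51 and 1.54 in the order of the marker, and miR-141, which shares its seed but not its transcript, was -2.90, -2.87, -2.09, 0.87, -1.77, 1.10, -0.02 and -0.41. Both were highest in OS replicates 16 and 17, and they correlated at r = 0.966. Their slopes of 0.55 and 0.59 did not pass (limma adjusted p = 0.0951), and were 0.10 and 0.05 with the run of title numbers as a term. Liver miRNAs were divided between mice in another way. miR-122, the most abundant miRNA of hepatocytes, was 12.05 in OS replicate 10, 9.53 in 12, 8.46 in 11, 9.26 in 17, 9.29 in 19, 9.09 in 16, 10.42 in 15 and 10.18 in 18. It was above 10 in OS replicates 10, 15 and 18 and below in all others. miR-192 was above 7 in the same 3 mice (7.21, 7.31 and 7.03) and at most 5.67 elsewhere. These mice hold both ends of the marker, and the slopes of miR-122 and miR-192 were -0.13 and 0.15 (limma adjusted p = 0.713 and 0.636). miR-193b, also of liver and of brown fat, differed from these. It was 0.15 in OS replicate 15 and 0.23 in 18, against 2.77 or more in every other mouse, with a slope of -0.64 (limma adjusted p = 0.128). Without OS replicate 10 it passed, with a slope of -1.16 (limma adjusted p = 0.0282).

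Names that match transfer RNAs, miR-720, miR-1274a and miR-1937a to c, had a mean level of 11.31 in OS replicate 10, 11.13 in 12, 10.22 in 11, 7.47 in 17, 10.00 in 19, 9.27 in 16, 9.58 in 15 and 10.11 in 18. OS replicate 17 was the lowest, with the next at 9.27 in 16. Their mean pairwise r was 0.553, with 0.268 without OS replicate 17 and 0.870 without OS replicate 10. The median slope of these 5 was -0.30, and 0.43 with the run of title numbers as a term. The 43 tested names numbered 700 and above held 1 of the 2 called miRNAs, miR-715, where 0.57% of all 351 miRNAs were called. Of the 43, 13 had a positive slope, where 175 of all 351 did. Next in that list were miR-1839-3p (-0.50) and miR-1249 (-0.42), both with a limma adjusted p of 0.0951. The Dlk1-Dio3 cluster, an imprinted group expressed from the maternal chromosome, had a median slope of 0.11 over 25 members, 17 of them positive, and miR-376b (0.60) and miR-136 (0.54) stood beside miR-376a with a limma adjusted p of 0.0951. The Sfmbt2 cluster had a median of -0.12 over 8 members, with miR-669b at 0.76 (limma adjusted p = 0.156), or 0.22 without OS replicate 10 (limma adjusted p = 0.751). The list of connective tissue and bone had a median slope of -0.05 over 24 members, 11 of them positive, and that of nerve 0.10 over 8, 7 of them positive.

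The miRNAs that the study took forward differed in their spread among these mice. miR-205, best known from epithelial cells, was the steadiest, at 1.27 in OS replicate 10, 1.51 in 12, 1.83 in 11, 1.7 in 17, 2.36 in 19, 1.71 in 16, 2.08 in 15 and 2.22 in 18 (SD 0.37). miR-214 (SD 1.87), miR-574-3p (1.67) and miR-335-5p (1.31) each spanned 4.01 log2 units or more. miR-335-5p was between -0.18 and 1.73 in the mice titled 10 to 12 and between -2.29 and -0.48 in the others, without overlap. miR-574-3p was lowest in OS replicate 15 (2.23) and highest in 12 (6.56), with 6.54 in 16, and its slope of -0.56 did not pass (limma adjusted p = 0.136). Across the 8 mice miR-214 had r = 0.816 with miR-574-3p, 0.707 with miR-335-5p and -0.742 with miR-205. Among the reference miRNAs of the study, miR-103 had an SD of 0.51 and a slope of 0.08, miR-191 had 0.75 and -0.23, and miR-423-3p had 0.91 and -0.43.

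miRNAs measured in all 8 mice were then grouped by how they varied, with average linkage on 1 minus r, a cut height of 0.4 and at least 10 members, which gave 7 groups, 6 to 11 under the alternatives, holding 172 of 288 miRNAs. Group 1, with 54 members, was led by miR-151-3p, miR-342-3p and miR-149 and held miR-23a, miR-24 and miR-214. Its mean had r = -0.894 with the marker and its members a median GC content of 54.5%. Group 2, with 29 members led by rno-miR-450a, miR-25 and miR-22*, held miR-451 and 7 of 15 red blood cell miRNAs (46.7% of the list, 24.1% of the group). Group 3, with 22 members led by miR-29b, miR-32 and miR-106b, held miR-144, miR-15a and both arms of miR-142. Groups 2 and 3 had r of 0.737 and 0.874 with the marker, and a median GC content of 40.9% in each. They differed in which mice were high, since group 2 was highest in OS replicate 17 (0.87 above its mean over mice) and group 3 in 15 (1.17). The marker miRNAs sit in groups 1 and 2, and miR-144, from the transcript of miR-451, sits in group 3. All groups were also formed in these 8 mice, so the relation of any group with the marker is a description.

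The other 4 groups had r between -0.541 and 0.743 with the marker. Group 4, with 20 members led by miR-126-3p, an endothelial and platelet miRNA, miR-192 and miR-194, held 4 of 8 liver miRNAs, had r = 0.214 with the marker, and was high in OS replicates 15 (1.11), 10 (1.10) and 18 (0.61). Group 5, led by miR-29c, miR-1191 and miR-29a with 19 members, was highest in 17 (0.96) and had r = 0.401. Group 6, with 17 members led by miR-339-5p, miR-720 and miR-1937c, held 3 of the 5 names that match transfer RNAs and had a median GC content of 60.9% over 9 members with a sequence. It stood at 1.72 log2 units relative to its mean in OS replicate 10 and at -2.14 in 17, with r = -0.541. Group 7, led by miR-872, miR-30e* and miR-155 with 11 members, stood at -2.06 relative to its mean in OS replicate 10 and at 1.07 in 19, and had r = 0.743.

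**Figure D4:**
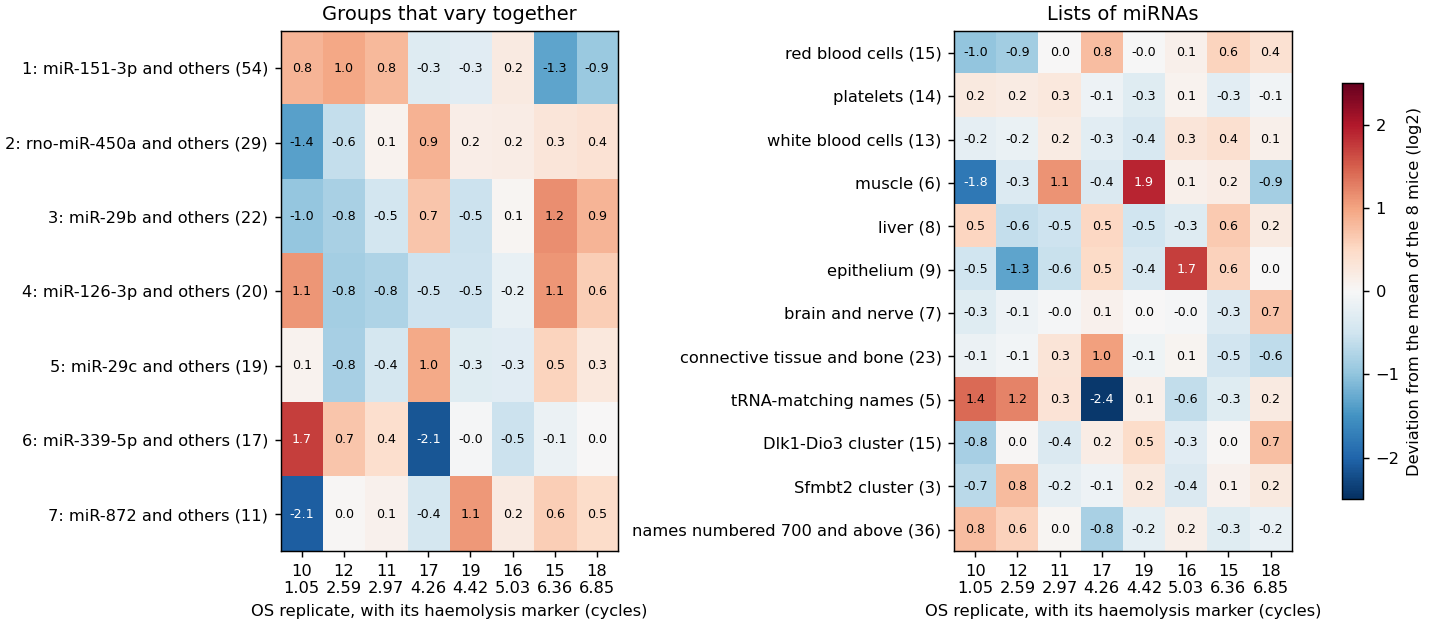
Mean log2 deviation from the average of the 8 mice with OS for 7 groups of miRNAs that vary together (left) and 12 lists of miRNAs (right), with mice in the order of their haemolysis marker and the number of miRNAs in parentheses. The red blood cell list here includes miR-451. Group 1 is highest in OS replicates 10, 12 and 11, group 6 is highest in 10 and lowest in 17, and the muscle list is highest in 19.

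miRNAs made from 1 transcript varied together more than others, but not in every case. The mean r was 0.384 over 78 pairs from one transcript that are not arms of one hairpin, 0.362 over 52 pairs of arms, 0.411 over 92 pairs with the same seed, 0.744 over 16 pairs of mouse and rat assays and 0.00917 over all 41328 pairs. These are descriptions, since the pairs share mice and some share members. Close clusters were miR-200b-200a-429 (mean r 0.867), miR-192 with miR-194 (0.852), miR-29a/29b-1 (0.842) and miR-199a-2 with miR-214 (0.836), a cluster of mesenchymal cells. Others came apart. miR-221 and miR-222 share a transcript on the X chromosome and a seed and had r = -0.405. miR-221 was 4.90 in OS replicate 10 and 4.46 in 11, and miR-222 was 3.52, its lowest, in 10 and 5.07, its highest, in 11. miR-143 and miR-145 of smooth muscle had r = -0.216. In the miR-106b-25 cluster miR-25 and miR-93 had r = 0.931, while the arms miR-106b and miR-106b* had r = -0.590.

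These arms differ in GC content, at 42.9% and 63.6%, as the sequences above show. Among 63 pairs from a transcript, arms included, whose GC contents lay under 10 points apart, the mean r was 0.458 and 10 were below 0. Among 28 pairs at 10 points or more it was 0.181, and 10 were below 0. Over all pairs with a sequence, the mean r was 0.12 for 6680 pairs within 5 points and -0.195 for 3404 pairs over 20 points apart. By seed, the miR-29 family had a mean r of 0.872 among its 3 members, miR-200b, miR-200c and miR-429 had 0.848, and the 5 members of the miR-17 seed family, with miR-106b and miR-93, had 0.758. miR-32 and miR-25, which share a seed, had r = 0.647, and the miR-181 family had a mean of -0.219. miR-30a* and miR-30e*, also of one seed, had r = -0.829, with OS replicate 10 the highest for miR-30a* (2.66) and the lowest for miR-30e* (-1.15).

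**Figure D5:**
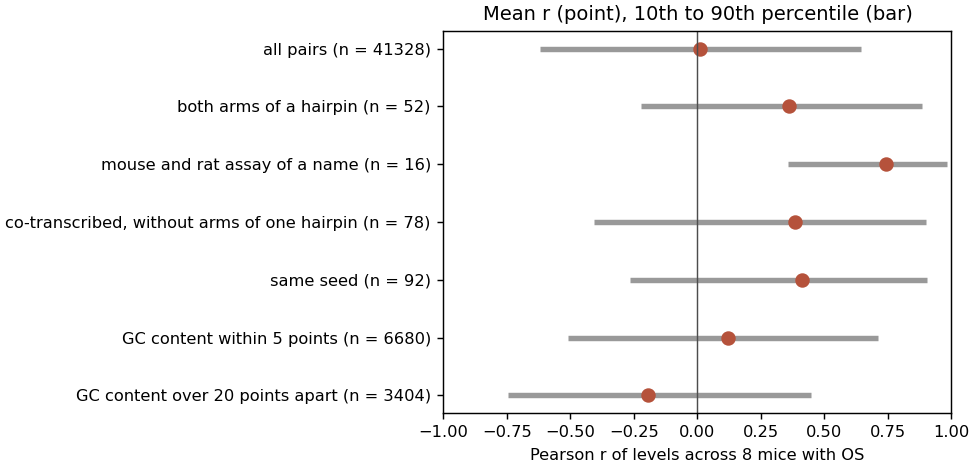
Pearson r of levels across the 8 mice with OS for classes of pairs of miRNAs, with the mean r as a point and the 10th to 90th percentile as a bar. Mean r is 0.744 for mouse and rat assays, 0.411 for a shared seed, 0.384 for a shared transcript and 0.00917 for all pairs.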

How the data were processed

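Plasma miRNAs of the 8 mice with OS were profiled by the authors on Exiqon mouse panels I and II. The deposited Cq values lie on a log2 scale and carry no normalization between mice; calibration between plates is not stated for them. No molecules are counted behind a Cq, so precision rests on 8 mice and on wells measured on both panels. The authors' deposited comparison of groups (signed fold changes and p-values) was not used, except for its miRNA name at each well position, which named 392 of 768 wells with 389 miRNAs, 46 of them rat names.

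A Cq above 37 was set to missing (6.77% of values). The 388 miRNAs with under 75% of values missing were retained, and the mean Cq over these was the centre for every mouse, with missing values replaced by the mean over mice for this step only. In all, 351 miRNAs measured in at least 6 mice, other than miR-23a and miR-451, were tested by limma 3.58.1 (lmFit and eBayes, two-sided, R 4.3.3) with Benjamini-Hochberg adjustment and a threshold of 0.05. Single values were tested over all 40320 pairings in Python 3.11.15 with numpy 2.4.6, pandas 2.3.3 and scipy 1.17.1, and plots were drawn with matplotlib 3.10.9. Mature sequences were matched through current arm names (273 of 389 names).

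The 74 miRNAs named by rule are the 10 with the largest slope past the threshold in each direction, filled by the smallest p, up to 3 per list by the smallest p, the miRNAs the study names for the screen, those of the marker, the 5 highest and 5 lowest SDs, and 3 leaders of each group that varies together. Members of co-transcribed groups are named beside them, and other members of a list or family were named after their values were seen. The mice, lists, marker and rule were chosen with earlier results of these data known, and the GC content measures and their 2 fits after these slopes were seen. Alternatives were other scalings, Cq limits, fills, filters, variance models and markers, the run of title numbers as a term and each mouse left out in turn. The code was tested on simulated data, 20 tables of 351 miRNAs with 60 known slopes on this marker in each. Slopes of 0.3, 0.6 and 1 were called in 17.5%, 67.5% and 92.0% of cases, and 5.09% of calls were false. The simulated noise was drawn independently for each miRNA, without any effect of the run. The measured levels vary together, so these rates need not carry over to them.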

Additional observations from a re-analysis of the deposited data

Results flagged for a closer look

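Each value reported per mouse was checked for a mouse standing far from the other 7, by its gap to the nearest mouse over the whole range (Dixon's critical value 0.526 for 8 mice). Of 79 values checked, 5 stood out, where chance alone flags about 1 in 20. The number of detected miRNAs was 333 in OS replicate 19, against 361 or more in the others. The level of rno-miR-345-5p was also lowest in OS replicate 19, at 2.01, with the next at 2.41, within the smallest spread of any miRNA measured in all mice. miR-124, a miRNA of neurons, was 0.22 in OS replicate 18 and -2.57 or less in the others. OS replicate 10, which had the lowest haemolysis marker, held the lowest levels of miR-872 (-4.00, with the next at -2.40) and of miR-30e* (-1.15, with the next at 0.96). Both lead the group of 11 miRNAs that is low in this mouse. Neither slope on the marker passed, and both were smaller without OS replicate 10, at 0.17 against 0.36 for miR-872 and 0.09 against 0.35 for miR-30e* (limma adjusted p = 0.525 and 0.695 without it, 0.128 and 0.138 with it).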

How the results depend on the processing

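The number of miRNAs related to the marker depended on the processing. With all mice it was 2. It was 38 (36 higher, 2 lower) when scaled to the 3 reference miRNAs, where the median slope of all miRNAs moved to 0.19, 8 with missing values at Cq 38, 4 with the reference miRNAs minus miR-451 as the marker, and 1 with a Cq limit of 35, with miR-451 alone as the marker or over miRNAs with a sequence. It was 0 when scaled to the median, with no Cq limit other than Cq 40, with miRNAs measured in 4 or more mice, by ordinary regression, with robust and trended variance and with the run of title numbers as a term, although 86, 97, 92, 86, 91 and 18 then had an unadjusted p under 0.05. Leaving out 1 mouse gave 0 to 6. The cause was not tested. miR-149 passed in 12 of 25 alternatives and miR-715 in 10 of 22, each with a negative slope in all. The alternatives of miR-715 leave out the Cq limit of 35, where it had too few values.

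The first principal component kept its direction and passed at an unadjusted p under 0.05 in all 18 alternatives run for it, with r from -0.960 to -0.808. The r of the level change with GC content, which has no test, lay from -0.857 to -0.749 in its own. For neither measure was the run of title numbers tested as a term. With it, the score changed by -2.41 per cycle of the marker, against -4.91 without it. Detection and mean Cq passed in none of theirs. Groups that vary together numbered 6 to 11. Of the named slopes, 13 of 72 changed sign with the run of title numbers as a term and at most 4 under any other alternative, miR-149 and miR-715 under none. Among lists, examples of a change of sign were a median slope that turned negative for muscle without OS replicate 10 (-0.13) and for epithelium with the run as a term (-0.18), and turned positive for platelets and for connective tissue when scaled to the reference miRNAs (0.13 and 0.17). No paired analysis was possible because all 8 mice are of 1 group and no groups were compared. The number of mice limits the precision, a slope of 0.3 being called in 17.5% of simulated cases with independent noise.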
